A study of Homo sapiens with 5 samples.

Results

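BRG1 peaks that lay at the starts of long noncoding RNA genes and in no other peak list were described in SNU638, a gastric cancer cell line of human origin. A peak was taken from the BRG1 list when a GENCODE release 44 lncRNA transcript began within 1 kb of it, when it lay farther than 1 kb from every protein-coding transcript start, and when it shared no base with the ACTL6A, NRF2 or IgG 2 lists. Positions are those of hg38 (GRCh38). Of 48793 BRG1 peaks, 1596 met these conditions and are called the members here. They were chosen by their position and by the absence of a peak in the other lists, so neither is a finding about them. Of all BRG1 peaks, 34937 (71.6%) shared no base with those 3 lists.

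The peaks came from CUT&Tag, in which an antibody brings a fusion of protein A and the transposase Tn5 to its target and the enzyme cuts sequencing adapters into the DNA nearby. The series held 5 libraries from untreated SNU638 cells, 1 each for anti-BRG1, anti-ACTL6A and anti-NRF2 and 2 for IgG, a control antibody with no set target, numbered IgG 1 and IgG 2. The peak names of the IgG 1 list tie it to the BRG1 library, so IgG 2, which the rule used, may not be that library's own control. Every library came from the same line, no treatment or genotype was compared and no antibody had a replicate, so the values below carry no replicate error and no p-value was computed. The other lists held 23917 peaks for ACTL6A, 9045 for NRF2, 11 for IgG 1 and 1746 for IgG 2. The lists show where fragments piled up, not which strand or transcript was made, and no RNA was measured in these libraries, so the expression of the lncRNAs and the markers of the line were not checked here.

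BRG1, encoded by SMARCA4, is an ATPase motor of the SWI/SNF (BAF) chromatin remodelling complexes, which slide and eject nucleosomes at promoters and enhancers. ACTL6A (BAF53A) is an actin-related subunit of the same complexes, and NRF2 is the transcription factor of the antioxidant response. Long noncoding RNAs are transcripts with no evident protein product. Many arise from promoters like those of coding genes, others from enhancers, and some serve as precursors from which microRNAs or small nucleolar RNAs (snoRNAs) are cut.

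Among the member summits, 2 kinds of sequence recur below, the one holding the AP-1 element and the other rich in CpG with the GC box. AP-1 dimers of JUN and FOS proteins read TGANTCA, and SP and KLF factors read the GC box, GGGCGG. Windows of 200 bp around the summit are shown on the plus strand of GRCh38, with capitals marking AP-1, SP/KLF and ETS (CCGGAA) matches on either strand. The first set holds AP-1 elements and lies at the highest member, at ENSG00000262343, at MIR181A1HG, a microRNA host, and at CYTOR, a lncRNA studied in gastric cancer.
ENSG00000262343, chr17:79850711-79850910: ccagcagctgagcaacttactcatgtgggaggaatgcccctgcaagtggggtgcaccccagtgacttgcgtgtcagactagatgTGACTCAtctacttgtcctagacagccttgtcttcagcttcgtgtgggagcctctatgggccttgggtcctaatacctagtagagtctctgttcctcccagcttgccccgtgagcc
MIR181A1HG, chr1:198937393-198937592: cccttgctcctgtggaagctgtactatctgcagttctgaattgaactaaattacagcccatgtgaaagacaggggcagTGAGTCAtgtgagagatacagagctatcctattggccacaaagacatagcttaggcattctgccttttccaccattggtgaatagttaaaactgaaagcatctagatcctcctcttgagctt
CYTOR, chr2:87455272-87455471: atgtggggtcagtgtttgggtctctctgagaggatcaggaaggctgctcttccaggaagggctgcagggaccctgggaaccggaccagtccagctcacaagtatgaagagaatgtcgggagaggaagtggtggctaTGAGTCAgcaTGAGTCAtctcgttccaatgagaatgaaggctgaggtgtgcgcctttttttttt
The second set holds GC boxes and lies at the hosts of miR-210, of the miR-17 to miR-92a cluster and of miR-155, and at the snoRNA host SNHG12.
MIR210HG, chr11:568667-568866: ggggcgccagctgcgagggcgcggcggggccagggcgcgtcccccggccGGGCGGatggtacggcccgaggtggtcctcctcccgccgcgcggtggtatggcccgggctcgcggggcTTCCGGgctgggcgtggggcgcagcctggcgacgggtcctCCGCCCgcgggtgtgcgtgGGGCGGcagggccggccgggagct
MIR17HG, chr13:91347405-91347604: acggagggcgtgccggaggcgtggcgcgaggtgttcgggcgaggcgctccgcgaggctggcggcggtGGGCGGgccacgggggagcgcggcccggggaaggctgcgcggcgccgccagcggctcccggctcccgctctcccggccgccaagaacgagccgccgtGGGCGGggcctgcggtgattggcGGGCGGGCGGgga
MIR155HG, chr21:25562101-25562300: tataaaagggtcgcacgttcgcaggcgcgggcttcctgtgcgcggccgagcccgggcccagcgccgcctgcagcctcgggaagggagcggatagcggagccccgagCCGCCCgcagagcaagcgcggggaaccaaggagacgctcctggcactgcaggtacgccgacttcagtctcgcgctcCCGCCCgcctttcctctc
SNHG12, chr1:28581909-28582108: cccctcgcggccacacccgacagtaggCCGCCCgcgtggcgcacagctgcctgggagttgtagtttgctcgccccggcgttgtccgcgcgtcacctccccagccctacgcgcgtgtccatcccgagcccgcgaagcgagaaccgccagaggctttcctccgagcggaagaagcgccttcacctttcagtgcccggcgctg
A window with none of these elements lies at MIR181A2HG, the fifth highest member.
MIR181A2HG, chr9:124658232-124658431: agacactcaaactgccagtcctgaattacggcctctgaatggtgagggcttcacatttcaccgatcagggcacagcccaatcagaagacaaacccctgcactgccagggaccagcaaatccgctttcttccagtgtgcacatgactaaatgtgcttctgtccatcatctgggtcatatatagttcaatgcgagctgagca
None of these windows has its summit in an exon of a protein-coding transcript. The summit at MIR181A2HG is inside an intron of the coding gene NR6A1, and the other summits are outside coding genes.

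The members were small peaks, as were BRG1 peaks in general, which had a median of 10 fragments at the summit. Fragment numbers at the summits, with those the caller expected, were recovered from its fold enrichment and p-value. The median member had 9 fragments at its summit (quartiles 6 to 15, range 3 to 81) where 0.878 were expected, a −log10 q of 4.40 (quartiles 2.63 to 8.04) and a width of 214 bp. Of the 1596 members, 788 (49.4%) had at least 10 fragments and 360 (22.6%) had 5 or fewer. BRG1 peaks at lncRNA starts that did share bases with another list were larger, with a median of 23 fragments, a −log10 q of 15.01 and a width of 447 bp (n = 849). BRG1-alone peaks at protein-coding starts also had more fragments, a median of 13 (n = 7558), whereas those in bodies of coding genes had 7 (n = 14372) and those outside coding genes 6 (n = 11411). Thus by median size the members stood between BRG1-alone peaks at coding starts and those of the other classes. Of the latter, 11.6% in gene bodies lay within 1 kb of a noncoding transcript start of a coding gene, and 5.06% outside coding genes within 1 kb of a start of another gene type.

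**Figure D1:**
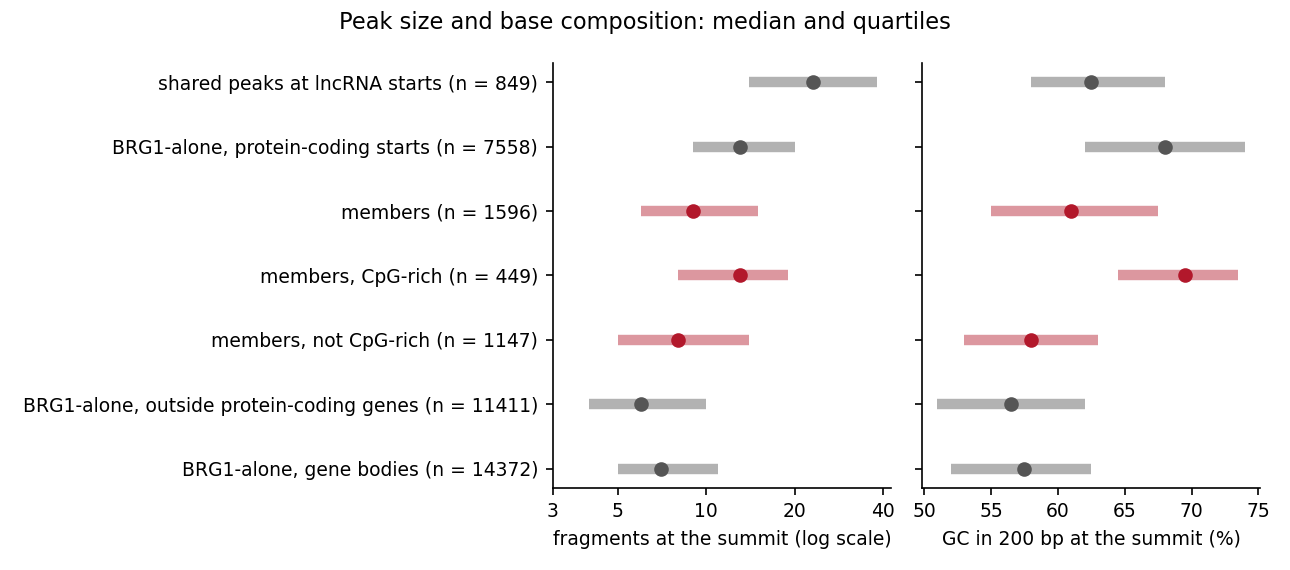
Fragments at the summit (left, log scale) and GC content of the 200 bp around it (right, percent) for the members in red and comparison classes of BRG1 peaks in grey; dots are medians and bars span the quartiles over peaks of 1 library. The members' median of 9 fragments lies below the 23 of shared peaks at lncRNA starts, and their median GC of 61.0% lies between 68.0% at BRG1-alone coding starts and 56.5% outside coding genes.

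At lncRNA starts the share of BRG1 peaks found by BRG1 alone was 65.3% (1596 of 2445, Wilson 95% interval 63.4% to 67.1%), below the 71.6% of all BRG1 peaks. It was 49.8% at coding starts, 84.4% in coding gene bodies and 80.6% outside coding genes. Of the other 849 peaks at lncRNA starts, 713 touched an ACTL6A peak, 383 an NRF2 peak and 17 an IgG 2 peak, and 0 touched an IgG 1 peak. These intervals take each peak as independent of the rest and hold counting error alone.

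The share fell as the BRG1 peak grew. Of lncRNA-start peaks with at most 5 fragments, 93.8% (90.9% to 95.8%, n = 384) were in no other list, against 70.8% (66.5% to 74.8%, n = 456) at 11 to 15 fragments and 9.45% (5.49% to 15.8%, n = 127) above 50. At 11 to 15 fragments the share was 65.7% (63.9% to 67.4%) at coding starts, 81.6% (80.1% to 83.1%) in gene bodies and 76.9% outside coding genes. At 10 fragments or fewer the share at lncRNA starts lay nearer to that of gene bodies, and above 10 nearer to that of coding starts. Its interval lay wholly above that of coding starts at 6 to 10 fragments (82.4% to 88.0% against 77.4% to 80.5%) and at 21 to 30 (41.1% to 52.0% against 35.7% to 39.2%), and overlapped it in the other bins. Peaks had a median of 10 fragments at the summit in the BRG1 list, 6 in the ACTL6A list, 17 in the NRF2 list and 18 in the IgG 2 list, and what part library depth had in the absence of peaks was not tested.

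The rule held the members within 1 kb of a start, and inside that range they were not spread evenly. Each was set against the nearest of all annotated starts, which lowers the distances where a gene has many starts. A member covered a lncRNA start itself in 472 cases (29.6%, 27.4% to 31.9%), and its summit lay within 100 bp of a start in 375, within 250 bp in 683 and within 500 bp in 1012. The summit was upstream of the nearest start for 788 members and at or downstream of it for 808. Around the 35250 lncRNA starts that lay over 6 kb from coding starts, BRG1-alone summits numbered 19.9 per 1000 starts per 250 bp in the bins next to the start and 3.43 in bins 3 to 5 kb away, a ratio of 5.81. For shared BRG1 summits these values were 26.7 and 0.901, a ratio of 29.6, so the alone peaks had the flatter profile. A summit near several transcript starts was counted for each.

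Annotation around the members was mixed. The nearest start belonged to the canonical transcript of its gene for 965 members, and 1249 had a canonical start within 1 kb. Starts on both strands lay within 1 kb of 96 members, and 121 had starts of at least 2 lncRNA genes. The summit lay inside a protein-coding gene for 453 members (28.4%), of which 92 had it in an exon of a coding transcript. For 84 members a noncoding transcript of a coding gene began within 1 kb, and for 189 a gene of another type did. The nearest coding start was a median of 24846 bp away, within 10 kb for 471 members and beyond 100 kb for 247.

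Of the peaks just inside the limit to a lncRNA start, those at ENSG00000261386, ENSG00000260672 and ENSG00000289017 lay 1000, 998 and 997 bp away with 9, 3 and 44 fragments. Just outside it, the peaks at ENSG00000259928, TARID and ENSG00000230286 lay 1002, 1003 and 1003 bp away with 10, 10 and 14 fragments. The limit therefore passed through a continuous range of distances. At the other limit, the members nearest to coding starts lay 1007, 1008 and 1009 bp away with 17, 10 and 9 fragments, and the peaks left out at 999, 997 and 983 bp had 12, 17 and 9.

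The base composition at member summits differed from that of their surroundings. The median GC content was 61.0% in the 200 bp at the summit (quartiles 55% to 67.5%) and 50.8% in windows 1 kb to either side. A window was called CpG-rich when its GC content was at least 55% and its CpG count at least 0.6 of that expected from its C and G, limits set after the data had been seen. By this, 449 members (28.1%, 26.0% to 30.4%) were CpG-rich, against 64.1% (63.0% to 65.1%) of BRG1-alone peaks at coding starts, 49.2% (45.9% to 52.6%) of shared peaks at lncRNA starts, 7.64% in gene bodies and 8.21% outside coding genes. CpG-rich members had a median of 13 fragments and the other 1147 a median of 8. A start was covered by 48.1% of the CpG-rich members and by 22.3% of the others. Of all BRG1 peaks at lncRNA starts, 51.8% (48.5% to 55.1%) of 867 CpG-rich and 72.7% (70.4% to 74.8%) of 1578 other peaks were in no other list.

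CpG-rich members and the others differed in how often they held these elements. The printed windows were grouped by their elements, so they do not bear on this split. Each motif was searched on both strands in 200 bp. The AP-1 element stood in 13.2% (11.6% to 15%) of member summits and 5.36% of windows 1 kb away, the share at summits being that of all 48793 BRG1 peaks, 13.2%. It was in 17.5% (15.4% to 19.8%) of members that were not CpG-rich, as at MIR181A1HG, and in 2.23% (1.21% to 4.05%) of CpG-rich members. All BRG1 peaks, split the same way, held it in 17.4% and 2.88%, so the split is not particular to the members. BRG1-alone peaks at coding starts held it in 5.32% (4.84% to 5.85%) and those outside coding genes in 18.0% (17.3% to 18.7%). AP-1 dimers are known to bind enhancers and to recruit SWI/SNF complexes there.

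The GC box showed the opposite split. It stood in 57.2% (52.6% to 61.7%) of CpG-rich members, as at MIR17HG, against 14.0% of windows 1 kb from them, and in 14.4% (12.5% to 16.5%) of the other members against 10.9% beside them. Over all members it was in 26.4%, over BRG1-alone peaks at coding starts in 51.1% and over all BRG1 peaks in 27.4%. Split by CpG, all BRG1 peaks held it in 61.4% of CpG-rich and 13.3% of other windows, much as the members did. The word GGGCGG itself holds a CpG. Members with an AP-1 element had a median −log10 q of 5.99 (n = 211) against 4.13 without, and those with a GC box 6.20 (n = 422) against 3.88. Both elements occurred together in 27 members. With size, the CpG-rich share rose from 16.1% at 5 fragments or fewer to 52.2% at 31 to 50, and the share with a GC box from 15.6% to 50.7%. The AP-1 share went from 10.6% to 19.4% between the same bins. Above 50 fragments, where there were 12 members, these shares were 33.3%, 50.0% and 33.3%.

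The NFY word CCAAT was in 17.3% (15.5% to 19.2%) of summits and 20.7% (19.3% to 22.1%) of windows 1 kb away, so it was common but not more frequent at the summit. The ETS word CCGGAA, read by a family that includes ELF3 and GABPA, was in 6.20% of summits and 3.32% of windows 1 kb away. In CpG-rich members these shares were 12.5% and 4.79%. In the other members they were 3.75% (2.80% to 5.01%) and 2.75% (2.15% to 3.50%), intervals that overlap. Over all BRG1 peaks the ETS word was in 7.07% and the CTCF core, below, in 9.77%. The CTCF core AGGGGGC, part of the site of the insulator protein, was in 11.1% of member summits and 5.42% of windows 1 kb away. The TEAD word GGAATG, of the Hippo pathway's factors, was in 11.5% (10.1% to 13.2%) and 10.4% (9.36% to 11.5%), intervals that overlap. Split by CpG it went both ways, 14.0% against 9.42% in the members that were not CpG-rich and 5.12% against 12.8% in the CpG-rich ones. The GATA word AGATAA was rarer at summits, 2.69% against 8.21%, and its letters are AT-rich where summits are GC-rich. The antioxidant response element core TGACNNNGC, read by NRF2, was in 12.5% and 7.64%, although no member touched an NRF2 peak by the rule. BRG1-alone peaks held it in 11.8% of summits in gene bodies, 11.8% outside coding genes and 9.74% at coding starts. The CRE TGACGTCA, RUNX TGTGGTT, forkhead TGTTTAC and HNF4 CAAAGTC words were in 0.689%, 3.07%, 1.32% and 1.63% of summits. None of AP-1, SP/KLF, ETS and CTCF core was found in 839 members (52.6%). The GC box, ETS, CTCF and antioxidant words hold mostly G and C. What part the higher GC content of summits had in their shares was not tested. A match is a description of letters, not a bound site.

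The 12 highest members had 34 to 81 fragments at the summit and ranked between 678 and 2935 in the whole BRG1 list. Of these, 8 covered a lncRNA start, 5 held an AP-1 element and 6 a GC box, against 29.6%, 13.2% and 26.4% of all members. The highest by q (chr17:79850631-79851064) ended 521 bp before the start of ENSG00000262343, with 67 fragments where 3.27 were expected and a −log10 q of 58.1. The next, at ENSG00000267737, had 81 fragments and a −log10 q of 57.9, and an ACTL6A peak lay 70 bp from its edge. It was 44468 bp from SOCS3, the feedback inhibitor of cytokine signalling. At ENSG00000254991, 27615 bp from MICAL2, an actin-oxidising enzyme, there were 44 fragments and at PRRT3-AS1, antisense to PRRT3, there were 50. The summit at PRRT3-AS1 lay in an exon of a protein-coding transcript. That peak also covered the start of a noncoding transcript of a coding gene, so it cannot be assigned to the lncRNA alone.

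Named lncRNAs followed among the 12. MIR181A2HG, a host of miR-181a, had 37 fragments where 1.26 were expected (−log10 q 37.3), and LINC01271 also had 37, 130553 bp from CEBPB, which encodes a bZIP transcription factor. LINC00482 had 56 fragments and ANKRD33B-AS1 had 34. The unnamed lncRNAs ENSG00000289017, inside CHD2, ENSG00000287663, inside TTC7B, and ENSG00000225676, whose nearest coding gene was LIF, the leukaemia inhibitory factor, had 44, 38 and 60. The remaining member of the 12 was on chromosome 8 and had 39. Of the 12, 4 had an ACTL6A peak within 1 kb, among them MIR181A2HG at 757 bp.

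At the level of genes, 1497 of 18866 annotated lncRNA genes (7.93%) had a member at a start. Genes in lists known for function were more often among them than genes named by identifier alone, of which 6.94% (6.52% to 7.39%) had one, and LINC-numbered genes lay between at 10.5%. A member lay at 24 of 83 microRNA hosts (28.9%, 20.3% to 39.4%), 9 of 28 snoRNA hosts (32.1%, 17.9% to 50.7%), 6 of 18 lncRNAs of the HOX clusters (33.3%, 16.3% to 56.3%) and 18 of 67 lncRNAs of a gastric cancer list written from general knowledge (26.9%, 17.7% to 38.5%). These genes have many annotated starts, 1548 over the 67 gastric cancer genes against 48183 over all lncRNA genes. Counted by start the gap was smaller, 12.7% of starts in the gastric cancer list, 12.7% of microRNA host starts and 16.9% of snoRNA host starts against 7.23% of all. A member near several starts was counted for each, so these shares do not count separate peaks. At SNHG11, 1 member gave 30 of the 76 snoRNA host starts, and at MIR4435-2HG, 1 gave 42 of the 138 microRNA host starts. The listed genes also had BRG1 peaks of any kind more often. Some BRG1 peak lay at a start of 89.3% of snoRNA hosts, 68.7% of the gastric cancer list and 66.7% of the HOX lncRNAs. It did so for 43.4% of microRNA hosts, 20.9% of genes named by identifier alone and 25.4% of all lncRNA genes. The higher shares with a member are therefore not particular to BRG1-alone peaks. Divergent transcripts had a member at 2.04% of 589 genes, although 81.7% had some BRG1 peak at a start. The rule leaves out any peak within 1 kb of a coding start, and how many of these genes that touches was not counted.

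The microRNA hosts held 36 members, with 3 to 53 fragments and a median −log10 q of 5.05. MIR210HG, host of the hypoxia-induced miR-210, had 3 members with 53, 28 and 26 fragments where 6.28, 6.35 and 6.66 were expected, and the hairpin lay 569 bp downstream of the highest summit. The member with 28 (chr11:567985-568175) covered both mature miR-210 sequences, and that with 26 lay downstream of them. MIR100HG, host of miR-100, let-7a-2 and miR-125b-1, had 2 with 40 and 13. MIRLET7BHG, host of let-7a-3 and let-7b, had 4 with 33, 31, 20 and 16. The listed hosts MIRLET7A1HG, MIRLET7IHG and MIR99AHG had 0 members. Both miR-181a hosts had a member, that of MIR181A1HG with 17 fragments where 0.546 were expected. MIR17HG, from which the growth-promoting miR-17 to miR-92a cluster is cut, had 16 fragments, and its hairpins lay 3100 to 3809 bp downstream of the summit. MIR155HG had 17, MIR1915HG 19, and MIR34AHG, host of the p53 target miR-34a, 21 and 7. MIR194-2HG, host of miR-192 and miR-194, which mark gut epithelium, had 26 and 16. Of the hosts not named here or in the gastric cancer list, MIR1302-2HG had 23 and the others 3 to 13.

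The mature microRNAs annotated inside these hosts are given here with the seed, bases 2 to 8, in capitals. No RNA was measured, so whether a transcript that begins at a member holds them was not tested. At MIR9-3HG the member lay downstream of the hairpin. The sequences are those of RefSeq on GRCh38, which held hairpins inside 20 of the 24 hosts. The first group shares the let-7 seed, the second the miR-181 seed and the third the miR-17 seed, and miR-210 and miR-100 each have their own.
let-7a-5p: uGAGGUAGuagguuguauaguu
let-7b-5p: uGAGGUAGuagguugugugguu
miR-181a-5p: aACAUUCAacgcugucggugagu
miR-181b-5p: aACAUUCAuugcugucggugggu
miR-17-5p: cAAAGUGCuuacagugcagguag
miR-20a-5p: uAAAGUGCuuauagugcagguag
miR-210-3p: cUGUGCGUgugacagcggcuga
miR-100-5p: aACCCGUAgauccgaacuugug

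The 9 snoRNA hosts held 10 members with 7 to 24 fragments. SNHG12 had the most, 24 where 1.74 were expected (−log10 q 16.5), followed by SNHG20 with 18, SNHG26 with 14, SNHG32 with 13 and SNHG17 with 12. SNHG7 had 2 members with 11 and 10 fragments, and SNHG11, SNHG22 and SNHG27 had 10, 8 and 7. The summit at SNHG22 lay in an exon of a protein-coding transcript. Of the 10 members, 6 were CpG-rich and 4 covered a start, against 28.1% and 29.6% of all members. An ACTL6A peak lay 99 bp from that at SNHG26.

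At the HOX clusters, whose genes set position along the body axis, the 8 members had 9 to 28 fragments and 0 of them covered a lncRNA start. HOXB-AS3 had 3 members with 28, 17 and 15 fragments, and HOXA-AS3 had 1 with 26 where 2.68 were expected. HOTTIP, a lncRNA at the HOXA13 end of its cluster, had 17, HOXB-AS4 13, HOTAIRM1 11, and HOXC-AS2 9. Coding starts are dense there, and the member at HOTTIP lay 1451 bp from one.

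The gastric cancer list held 29 members, with 3 to 40 fragments and a median −log10 q of 5.31, 11 with an AP-1 element and 12 with a GC box. It includes MIR100HG, MIR155HG, MIR17HG and MIR193BHG, which are also microRNA hosts, and MIR193BHG had 15 and 10 fragments. NEAT1, the scaffold of nuclear paraspeckles, had a member with 28 fragments whose summit lay 588 bp upstream of a start. LINC00511 had 5 members, more than any other gene, with 20, 19, 13, 3 and 3 fragments. AFAP1-AS1 had 20, LINC-PINT 18 and 10, LUCAT1, a stress-induced lncRNA, 14, and MIAT 13. The imprinted lncRNAs KCNQ1OT1 and H19 had 15 fragments and 9 and 8 fragments. DLEU2 had 15, LOXL1-AS1 14 and CASC15 8, 5 and 4. The summit at LOXL1-AS1 lay in an exon of a protein-coding transcript, and that member was 1185 bp from a coding start. Members with under 10 fragments rest on few molecules.

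CYTOR had 2 members, with 26 fragments where 1.97 were expected (−log10 q 17.5) and with 12, and MIR4435-2HG had 1 with 29 where 2.16 were expected (−log10 q 19.7). These genes lie on chromosome 2 and share copied sequence. The 200 bp printed for the higher CYTOR member occur on the opposite strand beside the MIR4435-2HG summit with 0 differences (identity 100%), and fragments wholly inside such a stretch could have come from either copy. Peaks were called on uniquely mapped reads, so both values are uncertain. The window of the lower CYTOR member had an identity of 54.5% to it. Among all members, 40 (2.51%) had a window that matched another member's over at least 150 bp at 95% identity or more. FAM182B had 4 members with 19, 10, 5 and 3 fragments, and 1 other gene with 4 lay on chromosome 8.

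The nearest coding gene of some members encoded a transcription factor. In a list of 46 gut and epithelial factors, 13 (28.3%) were the nearest coding gene to a member, against 1238 of all 19663 coding genes (6.30%). How often these factors are nearest to other BRG1 peaks or to lncRNA starts in general was not counted. The difference is thus not shown to be particular to the members. LINC01135, next to JUN, an AP-1 subunit, had 3 members with 17, 15 and 13 fragments, at 1083, 31359 and 1381 bp from the JUN start. The first and last lay just past the 1 kb limit to coding starts. LINC01814, 94870 bp from ID2, an inhibitor of bHLH factors, had 28, and ENSG00000204684, 194088 bp from the endoderm factor FOXA2, had 18 at the higher of its 2. The stem cell and gut factor KLF4 was nearest to 2 with 12 and 11 fragments, 2137 and 64398 bp away. Those nearest to SOX4, CDX2, the intestinal master regulator, HNF4A and GATA6 had 12, 9, 9 and 8, at 1749, 15491, 10624 and 6239 bp. That nearest to ETS2 had 15, at 103552 bp. The rest of the 13 had small peaks, with 5 fragments near RUNX3, 5 at 195957 bp from TFCP2L1, 4 near FOXA1 and 3 at 324763 bp from SOX9. The nearest gene need not be one that a lncRNA or its start acts on.

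Peaks of the other lists lay around many members. By the rule none overlapped, yet an ACTL6A peak lay within 10 kb of 611 members (38.3%, 35.9% to 40.7%), within 1 kb of 157 and within 200 bp of 30. Within 10 kb the share was 41.2% (40.1% to 42.3%) for BRG1-alone peaks at coding starts, 30.4% (29.6% to 31.1%) in gene bodies and 28.7% (27.9% to 29.5%) outside coding genes. An NRF2 peak lay within 10 kb of 244 members (15.3%) and an IgG 2 peak within 10 kb of 16. For NRF2 the share was 18.9% for BRG1-alone peaks at coding starts, 10.4% in gene bodies and 10.0% outside coding genes. IgG 1 had no peak within 10 kb of a member, and its 11 peaks give little to compare with.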

How the data were processed

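CUT&Tag libraries of SNU638 cells were analysed as lists of peaks, 1 for each antibody and 2 for IgG. The authors trimmed and mapped paired-end reads to hg38 with BWA and called peaks on uniquely mapped reads with MACS2, and fastp 0.23.0 and HOMER 4.11 are also in the submitters' processing notes. The control given to the caller is not given in the sources used here. The deposited score is 10 times the −log10 q-value for nearly every peak. The deposited fold is the caller's ratio of observed to expected fragments, each with 1 added, and the deposited −log10 p-value and q-value are the caller's.

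Fragments at a summit were solved for from the fold and taken where the whole number also met the Poisson −log10 p within 0.001. Peaks were set against GENCODE release 44. Motifs and GC content were read in 200 bp around summits and in windows centred 1 kb to each side. Sequences came from GRCh38 and mature microRNAs from RefSeq. The members and the gene lists were chosen with earlier results of these data known. Genes were named when they held 1 of the 12 highest members, were in a list and had a member, had at least 4 members, or held the 3 peaks on each side of a distance limit, and the lncRNAs beside transcription factor genes were named after their values were seen. The depth of the libraries was not counted from the lists. Near-identical windows were searched with BLAST 2.17.0 and edlib 1.3.9.post1. Routines were tested on simulated data. The versions were SciPy 1.17.1, NumPy 2.4.6, pysam 0.24.0, pandas 2.3.3, matplotlib 3.10.9 and samtools 1.23.1 under Python 3.11.15. Alternatives changed distances, overlap, strength, windows and the IgG list.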

Additional observations from a re-analysis of the deposited data

How the results depend on the processing

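The number of members was 868 with lncRNA starts within 250 bp and 674 at a −log10 q of at least 5, and otherwise within 1.5 times of 1596. Without IgG 2 it was 1598. The share of lncRNA-start peaks found by BRG1 alone was 47.6% at a −log10 q of at least 5, 51.1% at 10 fragments or more, 78.2% when only an overlap of 50% of both peaks counted, and 56.8%, 61.5% and 69.1% with starts within 250 bp, 500 bp and 2 kb. It was 65.4% without IgG 2. The median −log10 q of members was 8.86 at that minimum and 5.25, 4.77 and 4.10 at those distances. Median GC was 62.0% in 100 bp, 60.0% in 400 bp, 63.0% at a −log10 q of at least 5, 63.5% at 10 fragments or more, and 62.0% and 60.0% within 250 bp and 2 kb. The AP-1 share was 7.08% in 100 bp, 19.6% in 400 bp, 15% in the whole peak, 18.4% at the stricter q, 15.6% within 250 bp, 10.8% for TGAGTCA alone, 2.23% in CpG-rich members and 17.5% in the others. An ACTL6A peak lay within 5 kb of 22.2% and within 50 kb of 79.4% of members, and within 10 kb of 42.0% at the stricter q. With CpG at 0.75 of expected, 17.4% were CpG-rich. In all, 17 of 47 alternatives moved their value by less than its counting error or 1.5 times. The splits by fragments and CpG were chosen after the data had been seen. No paired analysis was possible because no group but IgG had more than 1 library. Small peaks rest on few fragments in 1 library with no replicate, and absence from another list is not the absence of binding.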

Other observations

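The share of lncRNA genes with a member varied among chromosomes. It was highest on chromosome 9, where 80 of 647 genes (12.4%) had one, followed by chromosome 22 with 11.7% and chromosome 17 with 11.3%, and among the autosomes it was lowest on chromosome 18, at 3.31%, where 18 of 543 genes had one. Around the members, the median number of other BRG1 peaks within 50 kb was 4 (quartiles 2 to 8), as for shared peaks at lncRNA starts, and 3 around BRG1-alone peaks outside coding genes. These values are given without a test.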
